A study of Homo sapiens with 75 samples.

Results

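The genes described here encode the kinases and adaptors of the spindle checkpoint (BUB1, BUB1B, BUB3, TTK, NEK2 and MAD2L1) and the 4 subunits of the NDC80 complex (NDC80, NUF2, SPC24 and SPC25). They were the 10 named members of this group among 19775 genes with a value. Every probe set with one of these names as its single gene symbol was taken, which gave 23 of 54675 probe sets. A gene's values below are those of its probe set with the top mean level across the 75 arrays, unless another is named. All 10 lay above the level filter in each of the 5 lines, so no member was lost before testing.

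RNA levels came from single-colour expression arrays of 5 human cell lines: G361 (melanoma), HepG2 (hepatoma), TK6 (B lymphoblastoid cells), U2OS (osteosarcoma) and BJ (skin fibroblasts). All were grown in DMEM with fetal calf serum. Each line had 5 groups of 3 arrays: mock-irradiated cells (called untreated) at 0 h, 3 h and 6 h, and cells given 5 Gy of ionising radiation and collected 3 h or 6 h later. No gene was deleted and no transgene was named for any group. Whether replicates came from separate cultures is not in the labels. The p-values therefore cover the spread between arrays only, which may be technical, and 3 arrays a group limit the precision. Levels are log2 values, on which a difference of 1 is a 2-fold change. A gene was called, and is said to have risen or fallen, at an adjusted p under 0.05 in limma. In a bulk culture, fewer cells in mitosis and less RNA per cell cannot be told apart.

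As background, the spindle checkpoint holds back anaphase until every chromosome is attached to spindle microtubules. The NDC80 complex is the microtubule-binding arm of the kinetochore: NDC80 and NUF2 form its outer heads, and SPC24 and SPC25 anchor it to the inner kinetochore. TTK (also called MPS1) is the kinase that starts the checkpoint signal at NDC80-bound kinetochores, BUB1 and BUB3 build the signalling platform, and MAD2L1 and BUB1B (BUBR1) form the complex that inhibits the anaphase-promoting complex. NEK2 is a kinase of centrosome separation that also acts at kinetochores. Many such genes are transcribed mainly in G2 and mitosis. After DNA damage p53, acting through p21 and the DREAM repressor complex, is known to repress them through promoter elements called CHR. CCAAT boxes are another element of such promoters, and are not taken here as sites of that repression.

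Promoters from RefSeq (GRCh38.p14, 250 bases before to 50 after a start) were on hand for 8 of the 10 genes, and TTK and BUB3 were not in the table. The stretches are shown because they hold the letters searched: CHR as TTTGAA or TTCGAA, the CCAAT box as CCAAT, and the E2F core as GCGCGAAA or GCGGGAAA, each on both strands. None of the matches found overlapped another. Capitals mark matches. Positions count from +1 at the start, and -1 is the base before it. The 80 bases before the start were as follows for BUB1B (chr15:40160989-40161068, plus strand), BUB1 (chr2:110678064-110678143, minus strand) and NEK2 (chr1:211675622-211675701, minus strand).
BUB1B: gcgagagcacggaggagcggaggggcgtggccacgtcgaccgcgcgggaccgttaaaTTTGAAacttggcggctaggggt
BUB1: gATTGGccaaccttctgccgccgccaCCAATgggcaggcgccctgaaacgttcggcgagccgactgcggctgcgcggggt
NEK2: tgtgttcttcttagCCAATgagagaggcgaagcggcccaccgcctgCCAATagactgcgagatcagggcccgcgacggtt
The 30 bases around the CHR letters were as follows for BUB1 (chr2:110678045-110678074, minus), SPC25 (chr2:168890416-168890445, minus), NDC80 (chr18:2571548-2571577, plus), NUF2 (chr1:163321958-163321987, plus) and MAD2L1 (chr4:120066807-120066836, minus).
BUB1 site: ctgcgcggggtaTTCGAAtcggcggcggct
SPC25 site: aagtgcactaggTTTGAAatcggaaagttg
NDC80 site: gagaatTTCAAATTCGAAcggctttggcgg
NUF2 site: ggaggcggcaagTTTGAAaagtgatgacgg
MAD2L1 site: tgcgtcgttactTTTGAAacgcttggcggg
CHR letters stood in 6 of the 8 promoters, against 16.4% of 35116 promoters of the same length. In BUB1B they began 23 bases before the start, in SPC25 and NDC80 at position -3, and in BUB1, NUF2 and MAD2L1 at positions 2, 17 and 25. SPC25 had a second match 247 bases before the start. TTTGAA was in 5 of 8 (15.2% of all promoters) and TTCGAA, in BUB1 and NDC80, in 2 of 8 (1.45%). The NDC80 match at -3 reads TTTGAA on the other strand and is followed directly by TTCGAA. The letters CCAAT stood in 5 of 8 (34.6%). They began 66 and 34 bases before the start in NEK2, 79 and 54 in BUB1, and 88 and 56 in SPC25. In SPC24 they began 207, 109 and 74 bases before the start, and in MAD2L1 229. The E2F core was in 0 of 8 (2.11%). NEK2 and SPC24 held CCAAT but no CHR letters in this window. A match is a description of letters, not of binding.

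The labels were checked before the members. CDKN1A, the gene of p21 and a textbook p53 target, was 11.03 to 11.39 in the 6 irradiated TK6 arrays against 8.94 to 9.49 in the 9 untreated ones, 10.74 to 11.25 against 9.22 to 9.85 in U2OS, and 11.47 to 11.71 against 10.23 to 10.74 in BJ. In HepG2 the 6 arrays of 6 h lay at 10.25 to 10.46 whatever their label, and the 3 libraries labelled irradiated 3 h at 8.85 to 9.31, within or near the untreated 0 h range of 8.77 to 9.27. In G361 the libraries labelled untreated 6 h replicates 1 and 2 (10.53 and 10.41) and untreated 3 h replicate 3 (10.18) were above all irradiated arrays, and untreated 6 h replicate 3 lay at 8.35. So directions below for G361 and HepG2 are those of the libraries as labelled. All 7 measured melanocyte markers, 7 B lymphoid and 10 fibroblast markers were highest in their own line. For HepG2 this was 1 of 10 hepatocyte markers, so the libraries labelled HepG2 went against that name: albumin, ALB, was 2.77 there against 2.81 to 2.94 elsewhere, and SERPINA1 was 3.26 against 8.57 in U2OS. AFP, the marker highest in HepG2, was 5.89 against 5.48 in U2OS. RUNX2, an osteoblast factor, was highest in HepG2 at 9.17. Below, HepG2 stands for the libraries so labelled. For U2OS it was 2 of 5 osteoblast markers. Some libraries stood apart: U2OS untreated 3 h replicate 1, in BJ irradiated 3 h replicate 2 and untreated 3 h replicate 1, and the 5 replicate 1 arrays of G361, whose GAPDH control probe sets are given below. Main results that rest on them are given without them too.

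**Figure D1:**
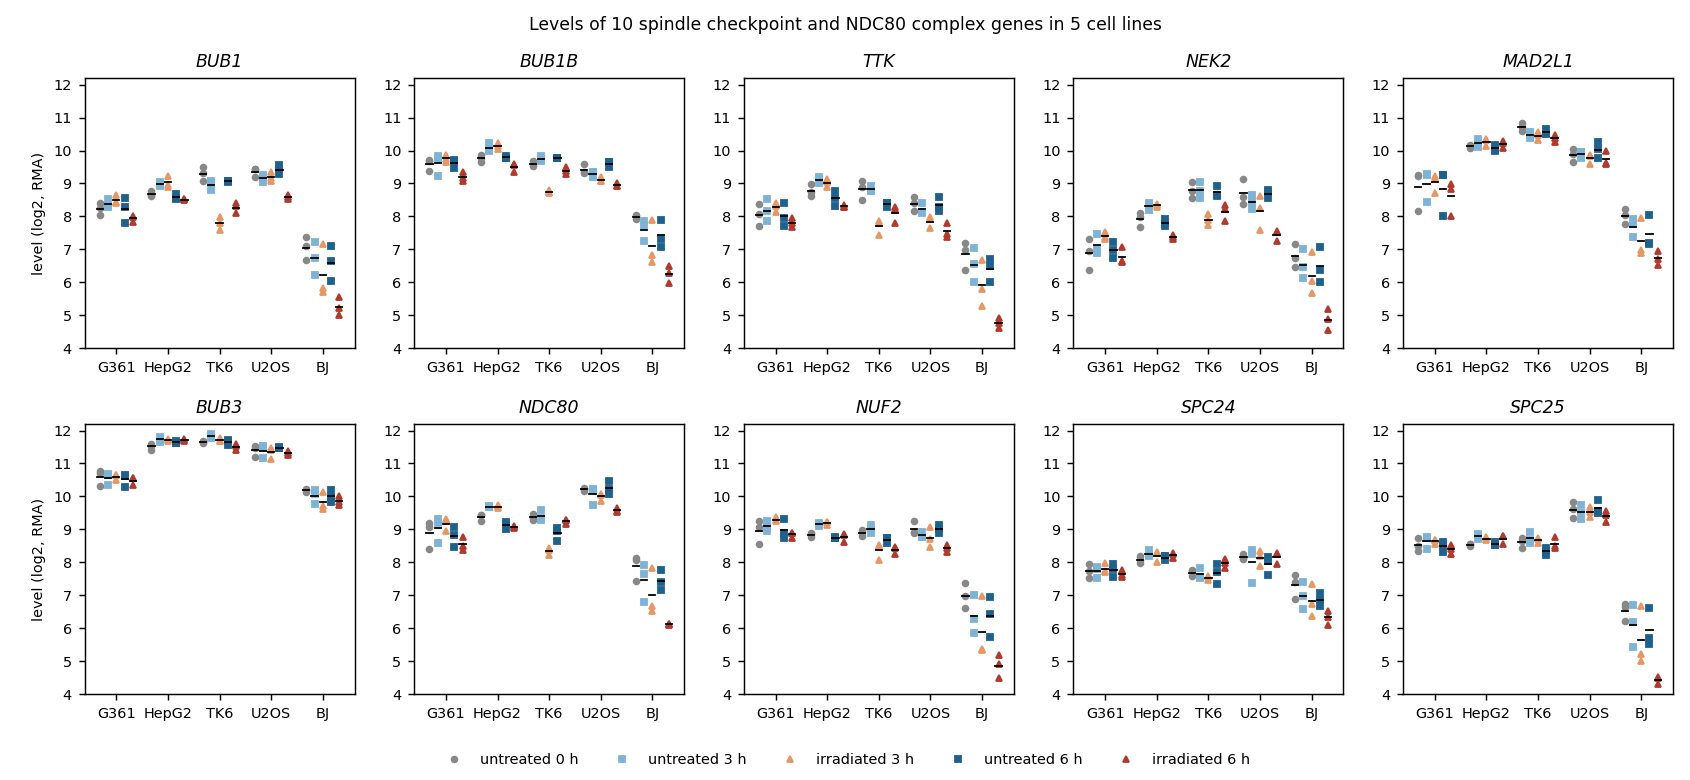
Levels (log2, y axis) of the 10 genes in each of 75 arrays, by cell line (x axis), with 5 groups of 3 arrays per line and black bars at group means. BJ has the lowest 0 h mean in every panel, and its irradiated 6 h arrays of TTK lie at 4.61 to 4.91.

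In cells at 0 h, BJ had the lowest mean of every member, though for NEK2 it was not called apart from G361. BUB1 was 9.36 ± 0.13 (SD, n = 3 for all values here) in U2OS, 9.30 ± 0.20 in TK6, 8.67 ± 0.08 in HepG2, 8.24 ± 0.19 in G361 and 7.05 ± 0.35 in BJ. Neighbours in that order differed between TK6 and HepG2 (0.63, adjusted p = 0.00937) and between G361 and BJ (1.19, adjusted p = 1.38e-06), but not beyond their spread between U2OS and TK6 or HepG2 and G361. BUB1B had one step only. It was 9.77 in HepG2, 9.60 in TK6, 9.59 in G361 and 9.42 in U2OS, with SDs of 0.08 to 0.18, and 7.996 ± 0.06 in BJ (1.42 below U2OS, adjusted p = 3.18e-11).

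The other kinases and adaptors gave more steps. TTK ran from 8.82 ± 0.30 in TK6 through 8.78, 8.39 and 8.06 in HepG2, U2OS and G361 to 6.85 ± 0.43 in BJ, and only the last step passed the test (1.21, adjusted p = 2.91e-06). NEK2 was 6.88 ± 0.47 in G361 and 6.80 ± 0.35 in BJ, not called apart (difference 0.08, adjusted p = 0.815), below HepG2 at 7.92, U2OS at 8.70 and TK6 at 8.79. Without the replicate 1 arrays of G361, NEK2 was 6.66 there and G361 minus BJ was -0.14 (adjusted p = 0.69), so G361 was then the lowest. MAD2L1 was 10.72 ± 0.12 in TK6, 10.13 in HepG2, 9.87 in U2OS, 8.88 ± 0.63 in G361 and 8.01 ± 0.23 in BJ, with HepG2 and U2OS the only neighbours not called apart. The G361 mean rests on replicate 1 (8.16 against 9.22 and 9.27). Without the replicate 1 arrays of G361 it was 9.25, and the step down from U2OS was 0.62 in place of 0.99 (adjusted p = 0.00454). BUB3, the partner of BUB1 and BUB1B, was 11.66, 11.52 and 11.40 in TK6, HepG2 and U2OS, then 10.60 in G361 and 10.19 in BJ. Both of the last steps passed the test. Without the replicate 1 arrays of G361 the BUB3 step down from U2OS was 0.67 in place of 0.80 (adjusted p = 7.81e-07). Other BUB3 probe sets did not all give the step from U2OS to G361. Their means over the 15 arrays of a line were 10.35 in U2OS and 10.12 in G361, 9.25 and 9.33, 8.16 and 8.36, and 4.83 and 4.69.

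Within the NDC80 complex, all 4 genes had their highest 0 h mean in U2OS. NDC80 was 10.22 ± 0.04 in U2OS, 0.85 above HepG2 (9.37, adjusted p = 0.000496), with TK6 at 9.36, G361 at 8.90 and BJ at 7.88. Without the replicate 1 arrays of G361, NDC80 was called lower in G361 than in TK6 (adjusted p = 0.0391) and HepG2 (adjusted p = 0.0401). With them it was not (adjusted p = 0.0571 and 0.0564), and the counts below are with them. SPC25 was 9.60 ± 0.24 in U2OS, 0.996 above TK6 (8.61; adjusted p = 0.000102), while HepG2 and G361 were both 8.54 and BJ was 6.53. NUF2, the partner of NDC80 in its head, was 9.02 in U2OS, 8.95 in G361, 8.90 in TK6 and 8.84 in HepG2, with no neighbours called apart, and 6.99 ± 0.37 in BJ (1.84 below HepG2, adjusted p = 7.43e-10). SPC24 had the narrowest order, from 8.16 in U2OS through 8.08, 7.74 and 7.69 in HepG2, G361 and TK6 to 7.31 ± 0.37 in BJ, and no neighbours passed the test. Across the members 16 of 40 neighbouring steps were called.

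Against BJ, 10 of 10 members were called in U2OS and in HepG2 (higher there), 9 in TK6 and 8 in G361, where 56.4%, 52.5%, 59.2% and 53.1% of all 16027 genes were called in either direction. Between the other lines the members' counts were nearer that background or below it: 6 of 10 for G361 and U2OS (50.3% of genes), 5 for G361 and TK6 (50.7%), 4 for G361 and HepG2 (45.3%), 5 for TK6 and U2OS (55.6%), 4 for HepG2 and U2OS (48%) and 3 for HepG2 and TK6 (48.7%).

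In TK6 at 3 h the 4 kinases and the outer heads of the NDC80 complex fell (NEK2, BUB1, BUB1B and TTK, and NDC80 and NUF2), and the other members did not pass the test. The counts were 6 of 10 fallen and 0 risen, where 2.11% of 14227 genes were called lower. TTK was 8.78, 8.77 and 8.91 in the untreated arrays and 7.42, 7.81 and 7.87 in the irradiated ones, and so fell by 1.12 (SE 0.16, adjusted p = 0.000129). BUB1, which recruits the other checkpoint proteins to kinetochores, was 9.03, 8.81 and 9.06 untreated and 7.59, 7.80 and 7.97 irradiated, 2.27-fold lower (1.18 log2, SE 0.12, adjusted p = 4.41e-06). The irradiated arrays lay wholly below the untreated ones for both kinases. BUB1B, part of the inhibitory complex, had arrays of 9.74, 9.83 and 9.69 against 8.73, 8.79 and 8.70 after irradiation and fell by 1.01 (SE 0.08, adjusted p = 2.83e-07). NEK2 was 9.05, 8.56 and 8.78 against 7.73, 8.07 and 7.89 and fell by 0.90 (adjusted p = 0.00126).

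Within the NDC80 complex the head genes were called in TK6 at 3 h and the anchor genes were not. NDC80 was 9.35, 9.30 and 9.59 untreated and 8.22, 8.44 and 8.39 irradiated, a fall of 1.06 (SE 0.11, adjusted p = 4.89e-06). NUF2 was 8.88, 9.13 and 9.01 against 8.08, 8.51 and 8.49 and fell by 0.64 (SE 0.12, adjusted p = 0.00213). The anchor genes overlapped between the groups: SPC24 was 7.83, 7.53 and 7.55 against 7.58, 7.56 and 7.45 (difference -0.10, 95% interval -0.40 to 0.19). SPC25 was 8.68, 8.60 and 8.91 against 8.60, 8.72 and 8.73 (-0.05, interval -0.30 to 0.20). MAD2L1 (-0.03, interval -0.22 to 0.15) overlapped as well, and BUB3 lay 0.12 below the untreated mean without passing the test (interval -0.26 to 0.02). In all, 7 of 10 members lay wholly lower, against 8.99% of genes. The difference between the falling and the other members was not itself tested. Without each of the 6 compared arrays in turn 6 were called, and 5 were called without replicate 2 or 3 of all TK6 groups and in one fit of all 75 arrays. Of 16 replication and S phase genes, 2 rose and 0 fell beside this (PCNA by 0.35 and CDC6 by 0.44). Of 19 p53 targets 18 rose, where 1.88% of all genes were called higher.

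At 6 h in TK6, 3 kinases were called lower, and the mean of NDC80 lay above its control. BUB1 was 9.07, 9.08 and 9.05 untreated and 8.11, 8.31 and 8.39 irradiated, a fall of 0.79 (SE 0.12, adjusted p = 0.000408). BUB1B fell by 0.39 (9.78, 9.78 and 9.77 to 9.28, 9.51 and 9.37; adjusted p = 0.00611) and NEK2 by 0.59 (8.93, 8.64 and 8.62 to 8.33, 8.22 and 7.87; adjusted p = 0.0276). The background of genes called lower was 2.23%. TTK lay 0.27 below its control (adjusted p = 0.413). NDC80 was 9.04, 8.66 and 8.96 untreated and 9.30, 9.16 and 9.27 irradiated, 0.36 higher with groups that did not overlap (SE 0.11, adjusted p = 0.069). In all, 1 of 10 members lay wholly higher and 6 wholly lower, against 13.1% and 10.6% of genes. The replicate numbers paired the TK6 arrays, and a fit with that number as a blocking term called NDC80 higher (adjusted p = 0.017). That makes 4 of 10 called, 3 lower and 1 higher. The blocked fit called 1868 of 14227 genes, against 887 in the main fit. In the main fit, counts of called members were 2 without untreated replicate 2 or 3 or irradiated replicate 2 or 3, and 1 without replicate 3 of every group. Beside this, 2 of 16 S phase genes rose and 4 fell, with a median of -0.09 (PCNA at 0.47, CCNE1 at -0.52 and GINS2 at -0.44). Of 19 p53 targets 19 rose, where 4.01% of all genes were called higher. The part of the S phase genes in the members' result was not tested.

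The change from 3 h to 6 h was tested directly in TK6. The effect of irradiation on NDC80 was 1.42 higher at 6 h than at 3 h (SE 0.16, 95% interval 1.09 to 1.75, adjusted p = 0.000173), and that on BUB1B 0.62 higher (SE 0.12, adjusted p = 0.0263), where 0.281% of genes were called higher. TTK stood at 0.85 (interval 0.39 to 1.31, adjusted p = 0.173) and BUB1 at 0.39 (adjusted p = 0.646). Among irradiated arrays NDC80 rose by 0.89 from 3 h to 6 h (adjusted p = 0.0002), together with BUB1B (0.64, adjusted p = 0.0003) and BUB1 (0.48, adjusted p = 0.045), against 1.64% of genes called higher. Among untreated arrays NDC80 was 0.48 lower at 6 h than at 0 h, the only member called in that comparison (adjusted p = 0.018; 3.35% of genes called lower). Between untreated 6 h and 3 h arrays NDC80 differed by -0.53 without passing the test in limma (adjusted p = 0.0818), where 0 of 10 members were called and 5 had an unadjusted p under 0.05. Leaving out replicate 2 or 3 throughout TK6 gave 1 and 0 calls for the difference between times, 2 and 0 for irradiated 6 h against 3 h, and 0 and 0 for untreated 6 h against 0 h, which had 2 without replicate 1.

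**Figure D2:**
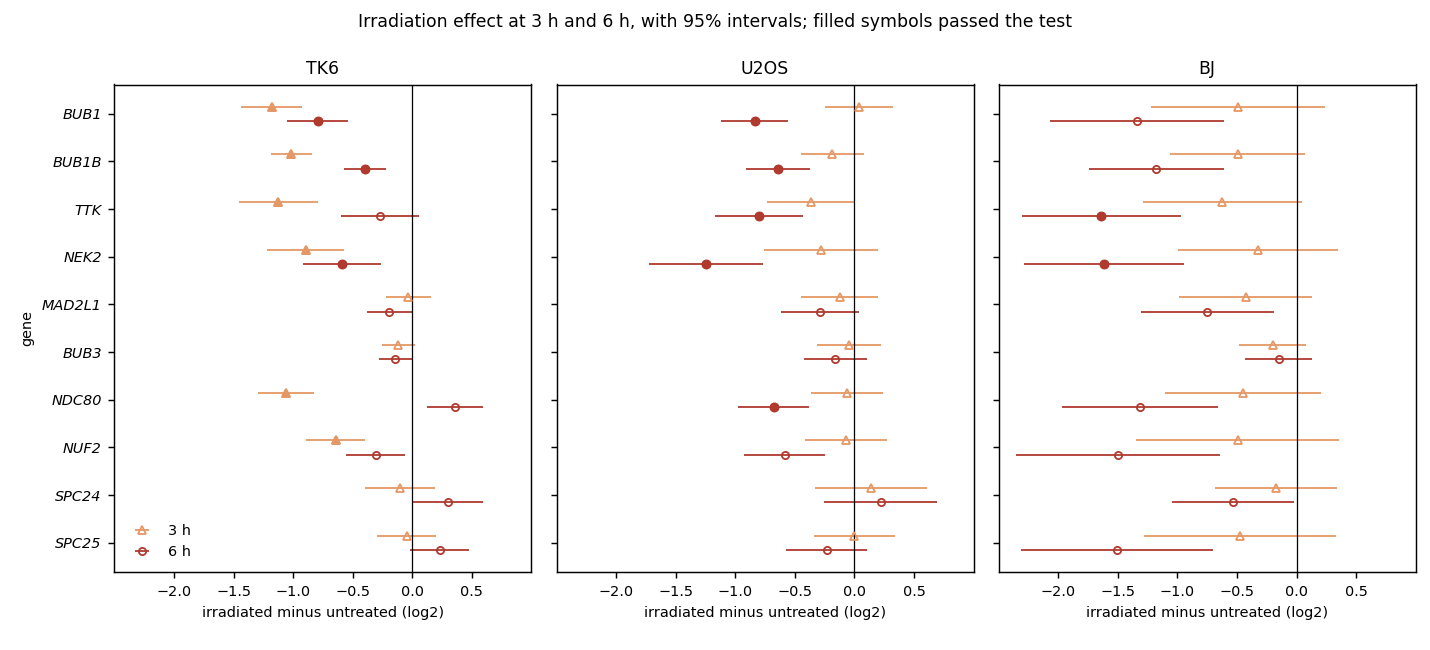
Irradiated minus untreated difference (log2, x axis) for each gene (y axis) in TK6, U2OS and BJ at 3 h (triangles) and 6 h (circles), with 95% intervals. Filled symbols passed the test. In TK6 the 6 h symbols of NDC80 and the kinases lie to the right of those of 3 h, and in U2OS and BJ most lie to the left.

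In U2OS members were called at 6 h and not at 3 h, though the difference between times did not pass the test. At 3 h, 0 of 10 members were called by limma (1 at an unadjusted p under 0.05, TTK at -0.37), where 0.0136% of 14654 genes were called lower. BUB1B and TTK lay wholly below their controls (1.84% of genes did). The median over members was -0.07 against 0.101 over all genes tested. Untreated 3 h replicate 1, the array that stood apart, was the lowest of its group for NDC80 (9.75 against 10.20 and 10.23) and SPC24 (7.39 against 8.25 and 8.38). Without it all 10 members were below their controls, with a median of -0.172, and still 0 were called.

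At 6 h in U2OS, 5 of 10 fell, where 0.334% of genes were called lower. NEK2 was 8.79, 8.55 and 8.74 untreated and 7.54, 7.53 and 7.26 irradiated, a fall of 1.25 (SE 0.23, adjusted p = 0.00821). BUB1 was 9.43, 9.29 and 9.55 against 8.64, 8.58 and 8.53 and fell by 0.84 (SE 0.13, adjusted p = 0.00266). TTK fell by 0.80 (8.29, 8.18 and 8.58 to 7.79, 7.47 and 7.39; adjusted p = 0.0392). Irradiated and untreated arrays did not overlap for any of these kinases. BUB1B fell by 0.64 (9.65, 9.65 and 9.49 to 8.92, 9.03 and 8.91; adjusted p = 0.0176), and NDC80 by 0.68 (10.08, 10.22 and 10.47 to 9.54, 9.54 and 9.66; adjusted p = 0.0298). NUF2 lay 0.59 lower without passing (interval -0.93 to -0.25, adjusted p = 0.201), and with BUB3 it made 7 of 10 wholly lower, against 6.93% of genes. SPC24 (0.22, interval -0.25 to 0.69), SPC25 (-0.23, interval -0.57 to 0.11) and MAD2L1 (-0.29) overlapped.

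The number of U2OS calls at 6 h changed with the arrays used. The count was 2 without any one of the untreated 6 h arrays, 3, 2 and 1 without irradiated 6 h replicate 1, 2 or 3, and 6, 0 and 0 without replicate 1, 2 or 3 of every group. Over the 6 fits that each left out 1 compared array the median difference stayed between -0.63 and -0.55. The fit blocked on replicate numbers, which paired the U2OS arrays, called 5 too, and 157 of 14654 genes, against 94 in the main fit. Beside these falls the S phase list had 0 of 16 called and a median near 0. Of 19 p53 targets 13 rose, where 0.307% of all genes were called higher. The difference between the effects at 6 h and 3 h was called for 0 of 10 members in U2OS, with 5 at an unadjusted p under 0.05. For BUB1 it was -0.88 (interval -1.28 to -0.48, adjusted p = 0.796).

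In BJ 2 kinases were called at 6 h, and replicates differed widely. At 3 h all 10 members had a lower mean after irradiation, with a median of -0.46, and 0 were called (0 at an unadjusted p under 0.05; 0% of 14467 genes were called lower) or lay wholly lower (3.32% of genes did). BUB1 shows the overlap: 6.23, 7.21 and 6.73 untreated, 5.84, 7.15 and 5.71 irradiated. Irradiated replicate 2 had a mean over the members of -0.01 relative to 0 h against -1.21 and -1.09 in replicates 1 and 3, and untreated replicate 1 was at -0.82 against 0.07 and -0.32. The S phase mean had the same pattern (0.15 against -0.97 and -0.72, and -0.78 against 0.07 and -0.19), and the p53 target mean was 0.61 to 0.74 in the irradiated arrays. The part of these arrays' state in the result was not tested. Without irradiated replicate 2 the median was -0.87, and without untreated replicate 1 it was -0.71. Without irradiated replicate 1 or 3 it was -0.23, and without untreated replicate 2 it was -0.20, and 0 were called in each case. Replicate numbers paired the BJ arrays of 3 h. The same-number differences in the mean over the members were -0.40, -0.08 and -0.77, and the fit blocked on those numbers called 0 as well. Leaving out 1 array breaks a pair.

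At 6 h the BJ arrays separated. TTK was 6.72, 6.50 and 6.00 untreated and 4.91, 4.61 and 4.78 irradiated, 3.11-fold lower (1.64 log2, SE 0.31, adjusted p = 0.0401). NEK2 was 7.07, 6.38 and 6.01 against 4.88, 5.18 and 4.56 and fell by 1.61 (SE 0.32, adjusted p = 0.0456). These were the 2 called members, where 0.0899% of genes were called lower. By size others were close: SPC25 at -1.51 (6.61, 5.70 and 5.51 against 4.29, 4.48 and 4.52), NUF2 at -1.50, BUB1 at -1.34, NDC80 at -1.31 (7.76, 7.41 and 7.16 against 6.11, 6.14 and 6.13) and BUB1B at -1.18, with adjusted p from 0.0976 to 0.246. Relative to 0 h, the mean over the members was -1.63 to -1.58 in the irradiated arrays and -0.80 to -0.02 in the untreated ones. In all, 9 of 10 members lay wholly lower (4.9% of genes did), and 9 had an unadjusted p under 0.05. BUB3 was the exception (-0.15, interval -0.43 to 0.13), and MAD2L1 (-0.75) and SPC24 (-0.54) were between.

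The 2 calls in BJ at 6 h depended on the arrays and the fit used. Without any one of the compared arrays the count was 0, except 2 without untreated replicate 3, and the median stayed between -1.54 and -1.12. One fit of all 75 arrays called 7. The share of all genes called in that fit is not given here, so these 7 have no background beside them. Of the S phase genes, 15 of 16 had a lower mean after irradiation, with a median of -0.60 and 1 called, CCNE2. Their part in the members' result was not tested.

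**Figure D3:**
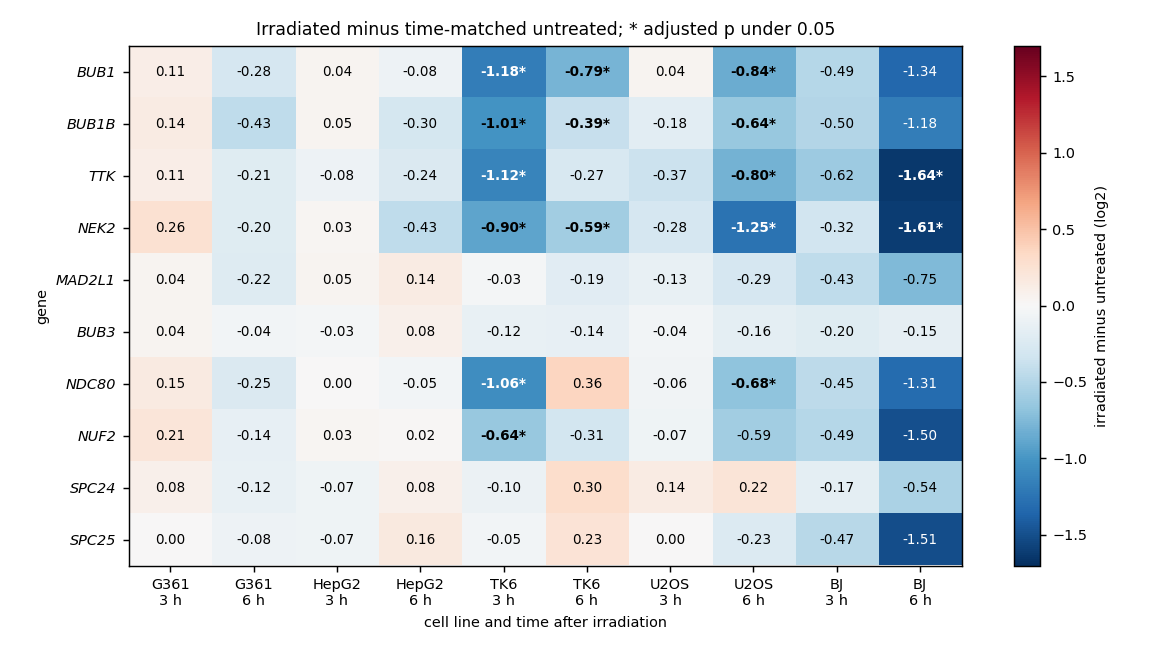
Irradiated minus untreated difference (log2, colour and printed value) for the 10 genes (rows) in 5 lines at 3 h and 6 h (columns). An asterisk marks an adjusted p under 0.05. Calls lie in TK6, U2OS and BJ, and the rows of BUB3, MAD2L1, SPC24 and SPC25 hold none.

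In HepG2 no member was called between irradiated and untreated arrays of one time, and several fell from 3 h to 6 h. Irradiation gave 0 of 10 calls at 3 h (0 at an unadjusted p under 0.05, with differences from -0.08 to 0.05) and 0 at 6 h (2 at an unadjusted p under 0.05: NEK2 at -0.43 and BUB1B at -0.30). The background called lower was 0% and 0.00696% of 14369 genes. NEK2 was 7.91, 7.70 and 7.81 in untreated and 7.32, 7.43 and 7.37 in irradiated arrays of 6 h, which did not overlap. In all, 3 of 10 members lay wholly lower at 6 h, against 7.02% of genes. Relative to 0 h, the mean over the members was 0.23 to 0.32 in untreated 3 h arrays and 0.26 to 0.28 in irradiated 3 h arrays, then -0.09 to -0.03 and -0.19 to -0.07 at 6 h. From 0 h to 3 h in untreated cells 8 of 10 members lay wholly higher, against 10.8% of genes, and 0 were called (8 at an unadjusted p under 0.05). From 3 h to 6 h, 6 of 10 fell among irradiated arrays (0.425% of genes called lower): NEK2 by 0.96, TTK by 0.72, BUB1B by 0.62, NDC80 by 0.61, BUB1 by 0.52 and NUF2 by 0.42. Among untreated arrays 3 fell over the same hours (0.292% of genes): NDC80 by 0.56, TTK by 0.56 and NUF2 by 0.41. These 2 comparisons were added after the data had been seen. Leaving out replicate 2 or 3 throughout HepG2 gave 3 and 1 calls among irradiated arrays and 0 and 0 among untreated ones, where leaving out replicate 1 gave 5. Relative to 0 h, the p53 target mean was -0.02 to 0.38 in untreated and -0.01 to 0.18 in irradiated 3 h arrays. At 6 h it was 0.88 to 0.91 and 0.98 to 1.11. From 3 h to 6 h, 13 of 19 p53 targets rose among irradiated arrays and 8 among untreated ones. The shares of all genes called higher were 0.397% and 0.125%. As labelled, the libraries cannot show whether irradiation changed the members in HepG2.

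In G361 0 of 10 members were called at 3 h (0 at an unadjusted p under 0.05) or 6 h (1, BUB1B at -0.43), and 0% of 14487 genes were called lower at either time. At 3 h all 10 differences were above 0, from 0.00 for SPC25 to 0.26 for NEK2, and at 6 h all were below 0, from -0.43 to -0.04. Without untreated 3 h replicate 3, whose CDKN1A lay at 10.18, 4 differences at 3 h were below 0. The median was then 0.07 in place of 0.11. Without any other compared array of 3 h, 0 to 3 were below 0. The library labelled untreated 6 h replicate 3 stood at 0.20 relative to 0 h in the mean over the members, against -0.15 and -0.08 in replicates 1 and 2, and all 3 irradiated 6 h arrays lay at -0.26 to -0.19. Its p53 target mean was 0.08 against 0.92 and 0.99. Without it the median difference at 6 h was -0.05 in place of -0.20. MAD2L1 and BUB3 split by replicate number in G361. For MAD2L1, the main probe set read 8.02 to 8.70 in the 5 replicate 1 arrays and 8.83 to 9.28 in the others. BUB3 was 10.28 to 10.50 against 10.55 to 10.77. The GAPDH control probe sets differed between 5' and 3' ends by -0.94 to -0.68 in those 5 arrays and by -0.03 to 0.05 in the others, and their part in the MAD2L1 and BUB3 levels was not tested. A second MAD2L1 probe set read 8.63 to 9.36 in replicate 1, 8.63 to 9.26 in replicate 2 and 9.14 to 9.72 in replicate 3.

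**Figure D4:**
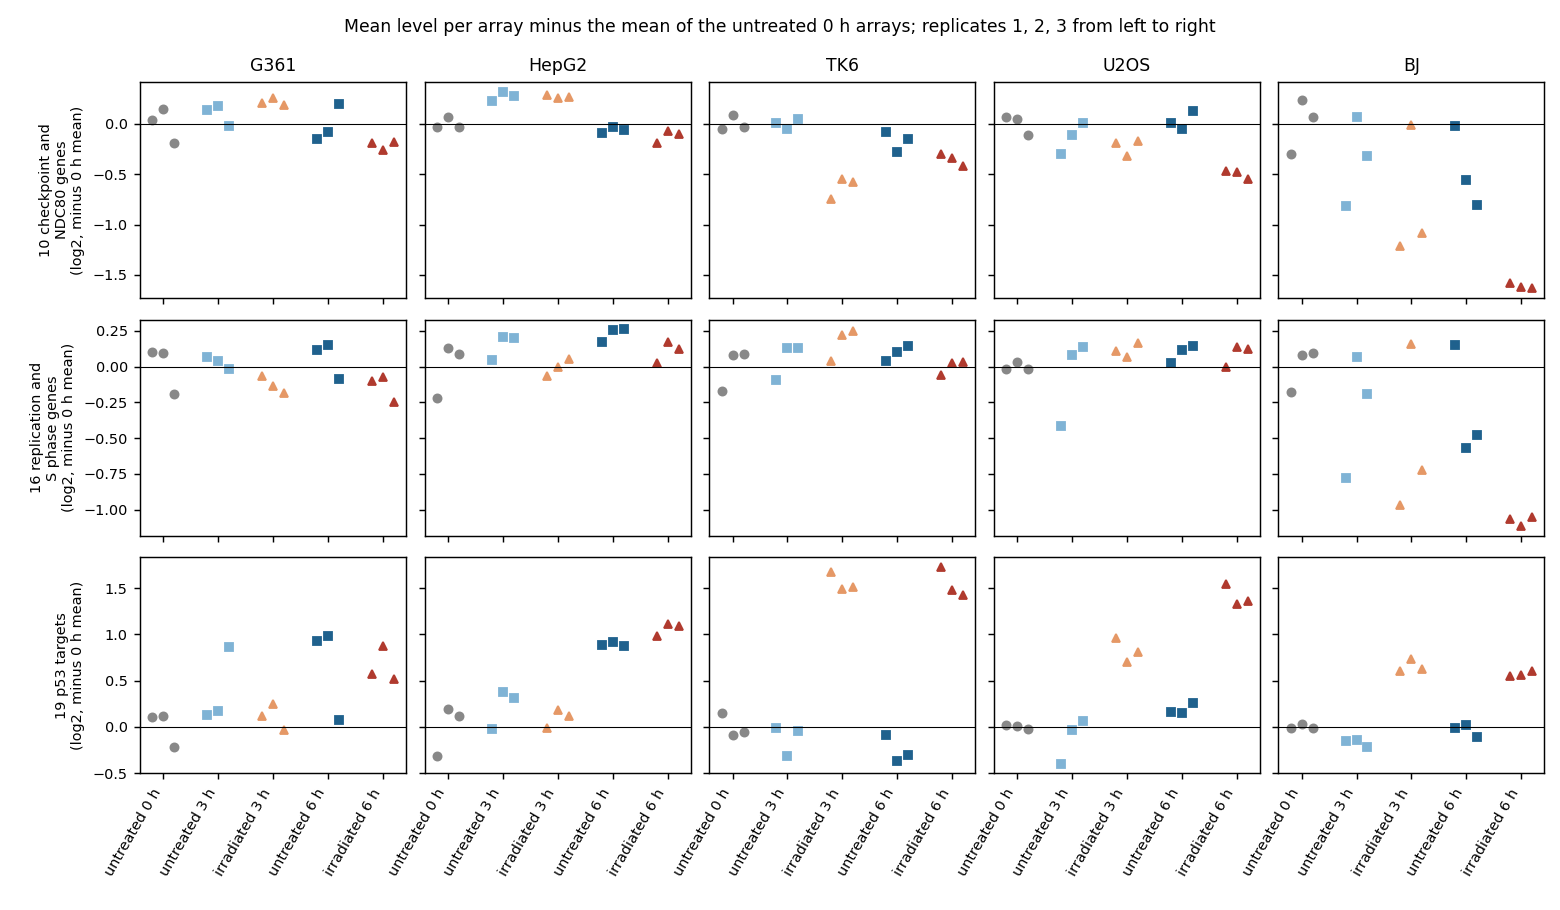
Mean level of the 10 members (top), 16 replication and S phase genes (middle) and 19 p53 targets (bottom) in every array, as log2 difference from the line's untreated 0 h mean (y axis), by group (x axis). In BJ the irradiated 3 h array at -0.01 for the members is also the highest of its group for S phase genes, and in TK6 at 3 h the members reach -0.75 while the S phase genes stay above 0.

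Whether the effect of irradiation differed between lines was tested with one fit of 75 arrays. At 3 h 2 of 10 members were called, BUB1 (adjusted p = 0.0112) and BUB1B (adjusted p = 0.00483), where 1.34% of 16027 genes were. Their effects were -1.18 and -1.01 in TK6 and between -0.50 and 0.14 in the other 4 lines. NDC80 (adjusted p = 0.0582) and TTK (adjusted p = 0.106) were not called. The replicate numbers paired the arrays in most lines, and with them as a block 5 were called at 3 h: BUB1, BUB1B, TTK, NEK2 and NDC80. At 6 h 6 of 10 were called, against 1.83% of genes: SPC25 (adjusted p = 0.000466), NDC80 (0.000931), TTK (0.00437), NUF2 (0.0186), NEK2 (0.0205) and BUB1 (0.0373). With the block 7 were called at 6 h, these genes and SPC24 (adjusted p = 0.0167, against 0.478 without it). The share of all genes called with the block is not given here for either time. NDC80 ranged from -1.31 in BJ to 0.36 in TK6, and SPC25 from -1.51 in BJ to 0.23 in TK6. Because the libraries of G361 and HepG2 went against their labels, the test was repeated over TK6, U2OS and BJ alone, an alternative added after the data were seen. At 3 h it called 0 members (BUB1 at adjusted p = 0.0558; 0.836% of genes), and at 6 h TTK, NDC80 and SPC25 (adjusted p = 0.0183, 0.000564 and 0.000596; 1.73% of genes). Leaving out replicate 1, 2 or 3 throughout gave counts over 5 lines of 1, 2 and 0 at 3 h and 2, 1 and 2 at 6 h.

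Other genes of the kinetochore were examined as lists. Of the KNL1 and MIS12 complexes, which carry the NDC80 complex, 1 of 6 fell in TK6 at 3 h: KNL1, the scaffold that binds BUB1 and BUB3 (-0.73, adjusted p = 0.000565). In the other 9 comparisons of irradiated with untreated arrays 0 of 6 were called. Of 8 genes of checkpoint loading and silencing, CDC20, the target that the checkpoint inhibits, fell in TK6 by 0.79 at 3 h and by 1.19 at 6 h (adjusted p = 5.38e-07). SPDL1, which brings dynein to kinetochores, fell by 0.64 in TK6 at 3 h and by 0.80 in U2OS at 6 h. TRIP13, which takes the inhibitory complex apart, fell by 0.48 in TK6 at 6 h, and MAD1L1, the receptor of MAD2L1, rose by 0.91 (adjusted p = 0.0085). The SKA complex, a partner of NDC80 on microtubules, had 0 of 3 called in any of the 10 comparisons, with medians of -0.70 in BJ and -0.35 in U2OS at 6 h.

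Of 14 measured centromere proteins, 4 fell in TK6 at 3 h and 2 rose at 6 h (CENPU by 0.50 and CENPW by 0.37), 1 fell in U2OS at 6 h and 2 in BJ at 6 h. HJURP, the chaperone that loads the centromeric histone CENPA, fell by 1.10 in TK6 at 3 h, by 0.93 in U2OS at 6 h and by 1.27 in BJ at 6 h. CENPA itself fell by 1.12 in TK6 at 3 h and by 1.20 in BJ at 6 h. The medians over the 14 were -0.19, -0.17 and -0.45 in these comparisons, against -0.77, -0.61 and -1.32 over the members and 0.01, 0.00 and 0.02 over all genes tested. In TK6 at 6 h the medians were 0.08 over the 14 and -0.23 over the members.

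Across the 75 arrays, after each line's mean was removed, 7 members had correlations of 0.83 or more with the rest. The correlation of a member with the mean of the other 9 was 0.94 for NUF2, 0.93 for TTK, 0.92 for NDC80, 0.91 for BUB1B, 0.90 for BUB1, 0.86 for NEK2 and 0.83 for SPC25. It was lower for MAD2L1 (0.65), SPC24 (0.57) and BUB3 (0.53). These are descriptions over arrays that share lines, groups and replicate numbers. They also depended on the line. SPC25 had 0.99 within the 15 BJ arrays and -0.02 within TK6, and SPC24 had 0.91 and 0.03. Within TK6 the SDs of both were small, at 0.19 and 0.21. SPC25 had 0.54, 0.51 and 0.59 within G361, HepG2 and U2OS. These differences were not tested. MAD2L1 had 0.95 in BJ and 0.05 in G361, and NDC80 stayed at 0.77 or above in each of the 5 lines. BJ also had the widest spread, with an SD of 0.90 for NUF2 against 0.21 in HepG2.

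The 5 non-members most like the mean of the members, by Pearson's r over these 75 deviations among 16017 genes, were CEP55, an abscission protein (0.97), the mitotic kinesin genes KIF11 (0.94), KIF18B (0.93) and KIF2C (0.92), and DEPDC1 (0.92). By Spearman's rho CEP55 and DEPDC1 kept their place among the first 5.

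Other probe sets of the members did not all go the same way. Over all comparisons of irradiated with untreated arrays, 67 of the 102 values from other probe sets above the level filter had the sign of the main probe set. In the comparisons of irradiated with untreated arrays where a main probe set was called and another of that gene lay above the level filter, 9 of 10 such values had the same sign, and 3 were called. These were values of NEK2 and BUB1. A second NEK2 probe set differed by -1.14 and -0.59 in TK6 at 3 h and 6 h, and both were called. It differed by -1.05 in U2OS at 6 h and -0.87 in BJ at 6 h, and neither was called. A second BUB1 probe set differed by -1.34 in TK6 at 3 h, which was called. At 6 h it differed by -0.61 in TK6 and -0.80 in U2OS, and neither was called. So the called values from other probe sets were all in TK6. The exception was a dimmer BUB1 probe set, with a mean of 4.11 over all arrays, at 0.04 in TK6 at 6 h. For MAD2L1, the second probe set gave -1.09 in BJ at 6 h against -0.75 from the main probe set, and -0.22 in TK6 at both times. The second SPC24 probe set, with a mean near 5 in each of TK6, U2OS and BJ, had the opposite sign to the main one in TK6 at 3 h and 6 h (0.20 against -0.10, and -0.06 against 0.30), in U2OS at 6 h (-0.09 against 0.22) and in BJ at 3 h and 6 h (0.30 against -0.17, and 0.16 against -0.54). None of these SPC24 values was called.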

How the data were processed

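RMA values on the log2 scale, as deposited by the authors and named in the submitters' processing notes, were used for 54675 probe sets on 75 arrays. Which RMA version was run, and whether the lines were normalized together, is not given in these sources. Of the probe sets, 41097 had a single gene symbol and were used. Another 1801 with several symbols and 11777 unnamed here were left out. Each gene took its probe set of highest mean. Within a line, genes whose mean passed the 40th percentile of probe sets were tested (numbers are in the report). In R 4.3.3, limma 3.58.1 fitted 5 group means per line, with eBayes trend and Benjamini-Hochberg adjustment over the genes tested. For differences between lines it fitted 25 group means over all arrays with a moderated F. Promoters were searched with Python 3.11.15. The fits were tested on simulated data.

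Members and gene lists were chosen with earlier results of these data known. All members were described. A list was given by counts and medians, and at most 3 called genes a comparison, those of smallest adjusted p, were named. Replicate numbers were taken to pair arrays where all 3 same-number correlations, after group means were removed, passed 0.1. For irradiated against untreated arrays this failed in BJ at 6 h (lowest -0.0306) and at 3 h in HepG2 (lowest 0.0961). Alternatives were no level filter, quantile normalization, the mean of a gene's probe sets, a fit of all 75 arrays, the replicate block, other probe sets, leaving out arrays, and Spearman's rho.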

Additional observations from a re-analysis of the deposited data

Results flagged for a closer look

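The effect of irradiation differed between the 5 lines for 8 gene and time combinations, by a test of the difference itself. At 3 h these were BUB1 (adjusted p = 0.0112) and BUB1B (adjusted p = 0.00483), lower in TK6 than elsewhere. At 6 h they were BUB1 (adjusted p = 0.0373), TTK (adjusted p = 0.00437), NEK2 (adjusted p = 0.0205), NDC80 (adjusted p = 0.000931), NUF2 (adjusted p = 0.0186) and SPC25 (adjusted p = 0.000466), with BJ lowest for each. Within TK6 the effect differed between 3 h and 6 h for NDC80 (adjusted p = 0.000173) and BUB1B (adjusted p = 0.0263). Over TK6, U2OS and BJ alone, TTK, NDC80 and SPC25 at 6 h were still called, and the others were not: BUB1 and BUB1B at 3 h (adjusted p = 0.0558 and 0.176) and BUB1, NEK2 and NUF2 at 6 h (adjusted p = 0.937, 0.294 and 0.0949). Leaving out 1 replicate number throughout gave 0 to 2 calls in place of 2 at 3 h and 1 to 2 in place of 6 at 6 h.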

How the results depend on the processing

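Of 38 counts of called members, 21 were 0 under every setting run. Values below are numbers of members called, and causes were not tested. With quantile normalization, HepG2 untreated 6 h against 0 h gave 1 in place of 0, the TK6 difference between times 1 in place of 2, and U2OS irradiated 6 h against 3 h 1 in place of 0. With the mean of a gene's probe sets, BJ at 6 h gave 0 in place of 2 and the difference between lines at 3 h gave 1 in place of 2. The replicate block gave 5 in place of 3 for HepG2 untreated 6 h against 3 h, 1 in place of 0 for TK6 untreated 3 h against 0 h and 6 h against 3 h, 5 in place of 3 for TK6 irradiated 6 h against 3 h, 1 in place of 0 for the same comparison in U2OS and in BJ, and 5 in place of 2 for the difference between lines at 3 h. In the comparisons of irradiated with untreated arrays it added NDC80 in TK6 at 6 h and 1 call in BJ at 6 h, where the numbers did not pair the arrays. Over all genes the block called 1203 in TK6 at 3 h, 1868 in TK6 at 6 h and 75 in BJ at 6 h. Without it 568, 887 and 34 were called. For the other settings the share of all genes called is not given in this section. Those counts therefore have no background beside them and are not results about the members. The fit of all 75 arrays gave 1 in place of 6 for HepG2 irradiated and 0 in place of 3 for untreated 6 h against 3 h, 1 in place of 3 for TK6 at 6 h, 0 in place of 1 for TK6 untreated 6 h against 0 h, 1 in place of 2 for the TK6 difference between times, and 7 in place of 2 for BJ at 6 h and of 0 for BJ irradiated 6 h against 3 h. Over TK6, U2OS and BJ alone, the difference between lines gave 0 at 3 h and 3 at 6 h. Leaving out arrays gave 1 to 6 and 0 to 5 for HepG2 irradiated and untreated 6 h against 3 h, 5 to 6 and 1 to 3 for TK6 at 3 h and 6 h, 0 to 1 for TK6 untreated 3 h against 0 h and 6 h against 3 h, 0 to 2 for untreated 6 h against 0 h, 0 to 3 for irradiated 6 h against 3 h and 0 to 2 for the difference between times. It gave 0 to 6 for U2OS at 6 h, 0 to 1 for U2OS irradiated 6 h against 3 h, 0 to 2 for BJ at 6 h, and 0 to 2 and 1 to 2 for the difference between lines at 3 h and 6 h. The 64 calls between pairs of lines at 0 h became 56 to 68 with arrays left out (66 without G361 replicate 1, added after the data were seen) and 61 to 70 under the other settings. U2OS at 6 h gave 4 in place of 5 with the mean of probe sets and in the fit of all 75 arrays. The comparisons of 6 h with 3 h within a treatment were added after the data had been seen. For single genes, 786 values kept direction and call, 72 moved, 35 lost a call, 9 gained one and 1 reversed: BUB1 in TK6 at 6 h, at 0.0354 from its dimmest probe set above the filter against -0.79. A reversal was counted only for values called in either setting, and uncalled changes of sign between probe sets are given in the report.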
